A study of Mus musculus with 4 samples.

Results

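The genes described here encode the proteins of the cytosolic ribosome. They were chosen by name alone: the gene symbol had to be Rpl or Rps followed by a number with its usual suffix, one of Rplp0 to Rplp2, or Rpsa. Names ending in -ps and the Rps6k kinases were left out. The rule gave 83 of 31053 genes, 51 of the large subunit and 32 of the small subunit. They were followed in sorted live CD45+ PI- cells of 3 mm excisional skin wounds from male mice, labelled C57BL6/J in all 4 libraries, that were either Angptl4+/+ (wild type, 8 weeks old) or Angptl4-/- (lacking Angptl4), at 1 and 5 days postwounding (dpw). Wild-type mice came from a commercial supplier and the Angptl4-/- line from a repository, so that line and genotype cannot be told apart. Each genotype and day was a single droplet library, the number of mice behind each library is not given in the sources used here, and no test between conditions was therefore possible. Angptl4 had 47 and 78 UMIs (unique molecular identifiers, each counting a captured transcript once) in the Angptl4+/+ libraries at 1 and 5 dpw and 0 in both Angptl4-/- libraries.

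Of 20069 barcodes, 19827 passed the filter of at least 200 genes and at most 10% mitochondrial UMIs. Deposited UMIs ran from 26981596 to 32962595 per library, and pairs of libraries shared 4 to 15 cell barcodes. Cells were clustered on a matrix without the ribosomal protein genes, so that none of them defined a class, and classes were named from markers. Neutrophil-like cells numbered 2693 to 3889 per library and macrophage-like cells 648 to 1555. Dendritic cell-like cells numbered 90 to 315, monocyte-like cells 121 to 145 and NK cell/T cell-like cells 36 to 236. Sums over the NK cell/T cell-like cells at 1 dpw rest on 39 and 36 cells. B cell-like cells, 2 to 27 per library, were too few for values of single genes.

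Cytosolic ribosomes consist of ribosomal RNA and a set of proteins, most of them needed in equal numbers. The mRNAs of these proteins are among the most abundant in growing cells. The mRNAs share a run of pyrimidines at their 5′ end, the TOP motif, through which mTOR signalling and the RNA-binding protein Larp1 set their translation and stability. Neutrophils leave the bone marrow with few ribosomes. Macrophages, dendritic cells and activated lymphocytes synthesise protein throughout their life in tissue.

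The start sites of 63 members, in 75 promoter entries, were read from RefSeq (GRCm38.p6). Within 20 bases of the start, 41.3% of these entries held a run of at least 8 C or T, against 16.0% of the 32851 promoter entries of all genes. CCGGAAG, on either strand of the 300 bases, was in 36.0% of the members' entries and in 8.9% of all. GCCATNTT, on either strand, was in 22.7% and 6.1%. Starts are shown for 6 members on which the results turn, from 40 bases before the start to 20 bases after it, with the longest run of at least 8 C or T near the start in capitals. Rps9 and Rps27 were the members closest to macrophage level in neutrophil-like cells, Rpl10a and Rps18 the farthest from it, and Rps27l and Rpl14 among those with the highest ratios between the days.
Rps9, chr7:3704001-3704060, plus strand: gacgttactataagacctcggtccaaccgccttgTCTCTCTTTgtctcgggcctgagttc
Rps27, chr3:90213629-90213688, minus strand: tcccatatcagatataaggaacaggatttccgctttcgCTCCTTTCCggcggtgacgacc
Rps27l, chr9:66946046-66946105, plus strand: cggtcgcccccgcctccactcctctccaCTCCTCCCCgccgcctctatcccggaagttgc
Rpl14, chr9:120571477-120571536, plus strand: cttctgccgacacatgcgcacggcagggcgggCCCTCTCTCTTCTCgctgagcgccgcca
Rps18, chr17:33955646-33955705, minus strand: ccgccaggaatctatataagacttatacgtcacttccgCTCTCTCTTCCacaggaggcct
Rpl10a, chr17:28328431-28328490, plus strand: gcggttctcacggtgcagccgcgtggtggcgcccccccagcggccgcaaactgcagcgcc
Rps9 and Rps27l both had such a run, and their ratios between the days in neutrophil-like cells, given further on, lay at opposite ends. The Rpl10a start shown had none, nor had its other RefSeq start, and the other start of Rps27l had none either. These matches are a description of the letters only.

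Over the 4 libraries, 82 of the 83 members had at least 100 UMIs and Rpl10l, a testis form of Rpl10, had 0. Rpl39l, a testis form of Rpl39, had 103 and Rpl3l, the striated muscle form of Rpl3, had 708. In the ratios between conditions, 81 members in neutrophil-like cells and 80 in macrophage-like cells had at least 100 UMIs over the compared sums. The last 300 bases of the transcripts shared 31-base words with other genes of the count table for 28 members, and 22 shared at least 10% of them. Values of these 22 are uncertain, since reads from such stretches may be lost or credited to a copy. The highest shared percentages were 98.9% for Rpl36a, 96.7% for Rpl35, 94.5% for Rpl10 and 87.1% for Rps12. Among other members named further on, Rps18 shared 80.1%, Rplp1 76.3%, Rplp2 47.3% and Rpl11 46.9%. Rps2 shared 29.2%, Rpl17 28.0%, Rps16 25.6% and Rps4x 16.3%. Rps9, Rps27l, Rpl10a, Rpl14, Rps21, Rps28 and Rpl39 shared none and Rpl36 6.67%. Rps27 shared 62.7% of its words with Rps27rt.

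Neutrophil-like cells gave the smallest part of their UMIs to ribosomal protein genes of any class. At 1 dpw their share was 1.46% with Angptl4 (exact Clopper-Pearson 95% interval 1.46 to 1.47, counting error only, as for all intervals here) and 1.32% without it (1.31 to 1.33). By 5 dpw the shares were 2.50% (2.49 to 2.51) and 2.51% (2.50 to 2.52). Macrophage-like cells had 7.04% and 10.9% in Angptl4+/+ wounds and 7.41% and 11.3% in Angptl4-/- wounds. Both days of both genotypes were thus several times the neutrophil-like level, with no overlap between the classes in these summed shares. Dendritic cell-like cells had 14.0% and 19.0% in Angptl4+/+ wounds and 15.2% and 19.4% in Angptl4-/- wounds, and monocyte-like cells 18.1%, 16.4%, 18.8% and 18.4% in the same order. NK cell/T cell-like cells had 17.1%, 23.1%, 20.1% and 24.5%. The few B cell-like cells had 26.4% to 28.1%. Monocyte-like cells lay above dendritic cell-like cells at 1 dpw, with log2 ratios of 0.36 and 0.30, and below them at 5 dpw, with -0.21 and -0.08.

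**Figure D1:**
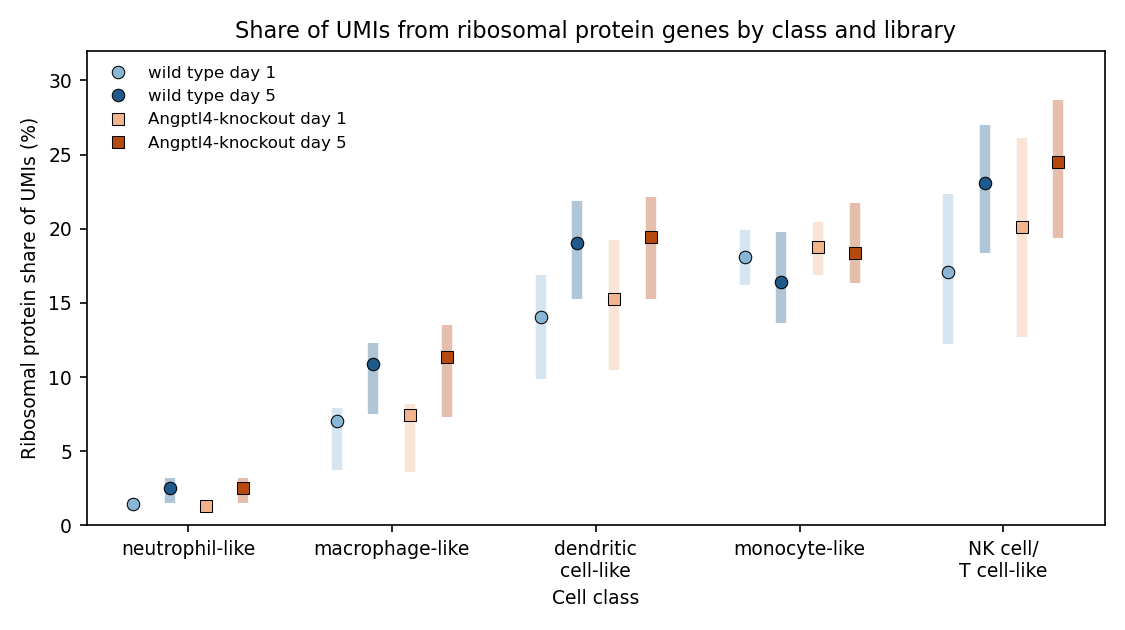
Share of UMIs from the 83 ribosomal protein genes (y axis, percent) in 5 cell classes (x axis) and 4 libraries (circles, wild type; squares, Angptl4-knockout; dark, day 5). Symbols are the share of the summed UMIs and bars the interquartile range of the share over single cells. The neutrophil-like symbols sit between 1.32% and 2.51%, below those of every other class.

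Over all passing cells, Angptl4+/+ wounds had shares of 4.87% (1 dpw) and 10.8% (5 dpw), and Angptl4-/- wounds 4.57% and 9.83%. This pooled value mixes the classes and therefore follows their proportions. Single cells spread widely within a class. The middle 90% of neutrophil-like cells ran from 0.622% to 2.62% in Angptl4+/+ wounds at 1 dpw and from 0.776% to 5.23% at 5 dpw. Macrophage-like cells of the same libraries ran from 2.30% to 13.4% and from 4.57% to 17.2%, and so overlapped the upper neutrophil-like cells. The median macrophage-like cell of the same libraries, with 5.33% and then 9.81%, was below the share of the summed UMIs, in which cells with more UMIs weigh more.

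The 2 subunits did not stand in the same proportion in every class. UMIs of large-subunit members divided by those of small-subunit members came to 0.892 and 0.863 in neutrophil-like cells at 1 dpw (Angptl4+/+ and Angptl4-/-) and to 1.11 in both genotypes at 5 dpw. In macrophage-like cells the ratio ran from 1.168 to 1.2. Monocyte-like cells lay between 1.15 and 1.16, NK cell/T cell-like cells between 1.155 and 1.205. Neutrophil-like cells at 1 dpw were thus the only sums, among the 20 of 5 classes and 4 libraries, with more small-subunit than large-subunit UMIs. The excess was not present in every subset of these cells, as given further on. Among the listed members that excess rested on Rps9. With Rps9 left out, an alternative chosen after seeing the data, the neutrophil-like ratios were 1.16 and 1.132 at 1 dpw and 1.272 and 1.279 at 5 dpw, and those of the other classes 1.179 to 1.268. Ribosomal proteins that the name rule misses are not in these sums. The small-subunit gene Fau is such a gene, and in neutrophil-like cells it lay above Rps9 in each library. The ratios and the excess thus hold for the listed members only.

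Rps9 was the leading member in neutrophil-like cells. Rps9, a protein of the small subunit that binds its ribosomal RNA early in assembly, supplied 12.25% (Angptl4+/+) and 12.74% (Angptl4-/-) of their ribosomal protein UMIs at 1 dpw. By 5 dpw it supplied 6.07% and 6.09%. Its median over libraries was 9.17% there, against 2.71% in macrophage-like, 2.72% in monocyte-like and 2.28% in dendritic cell-like cells. Rps27, Rps27a (which is made as a fusion with ubiquitin), Rps29 and Rpl37 came next in neutrophil-like cells, with medians of 4.60%, 3.53%, 3.17% and 3.17%. The 5 leading members together held 23.6% of the members' UMIs in neutrophil-like cells and 11.2% to 12.3% in the other 4 classes. By the median over libraries, Rps29 led in macrophage-like and dendritic cell-like cells, Rps9 in monocyte-like cells and Rplp1, a protein of the P stalk that recruits elongation factors, in NK cell/T cell-like cells. Each of these 4 classes had 1 library with another leading member. At 1 dpw with Angptl4, for example, Rps9 had 2.93% and Rps29 2.80% of the macrophage-like members' UMIs.

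Macrophage-like over neutrophil-like cells, the summed members had log2 ratios of 2.27 (Angptl4+/+) and 2.49 (Angptl4-/-) at 1 dpw. The 5 dpw ratios were 2.12 and 2.18. In each library 79 of the 81 members tested were higher in macrophage-like cells by at least 0.5 on the log2 scale, the size used for all counts here. Of all genes, 69.8%, 60.9%, 69.5% and 58.7% were higher by that size (Angptl4+/+ at 1 and 5 dpw, then Angptl4-/-), and 14.5%, 18.7%, 15.1% and 21.0% were lower. The members' median ratio was 2.72, 2.30, 2.95 and 2.38 in the same order, and that of all genes 1.43, 0.96, 1.45 and 0.88. Single members ranged far around this middle. Rps9 was the member closest between the classes by its median over libraries, with 1792, 1519, 1682 and 1526 CPM (counts per 1000000 UMIs) in neutrophil-like and 2061, 2769, 2127 and 2427 CPM in macrophage-like cells, log2 ratios of 0.20, 0.87, 0.34 and 0.67 and a median of 0.50. It was thus close at 1 dpw and past the size of 0.5 at 5 dpw. Rps27 (0.51, with the reverse order of days), Rpl37 (1.11), Rpl17 (1.46) and Rps16 (1.56) followed.

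At the other end, Rpl10a had 8.69, 44.6, 4.97 and 38.5 CPM in neutrophil-like cells and 511, 857, 515 and 880 CPM in macrophage-like cells. Its median log2 ratio was 5.20. Rps18 (4.38), Rps4x, the X-linked form of Rps4 (4.19), Rpsa, which also serves as a laminin receptor (4.17), and Rpl3 (4.13) were the next farthest apart. The members thus spread over several log2 units between the 2 classes. Rpl3l was the member higher in neutrophil-like cells by at least 0.5 in every library, at 8.08, 14.5, 8.79 and 10.8 CPM against 1.88, 2.07, 1.72 and 0.905 CPM in macrophage-like cells, which rest on 7 to 27 UMIs.

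**Figure D2:**
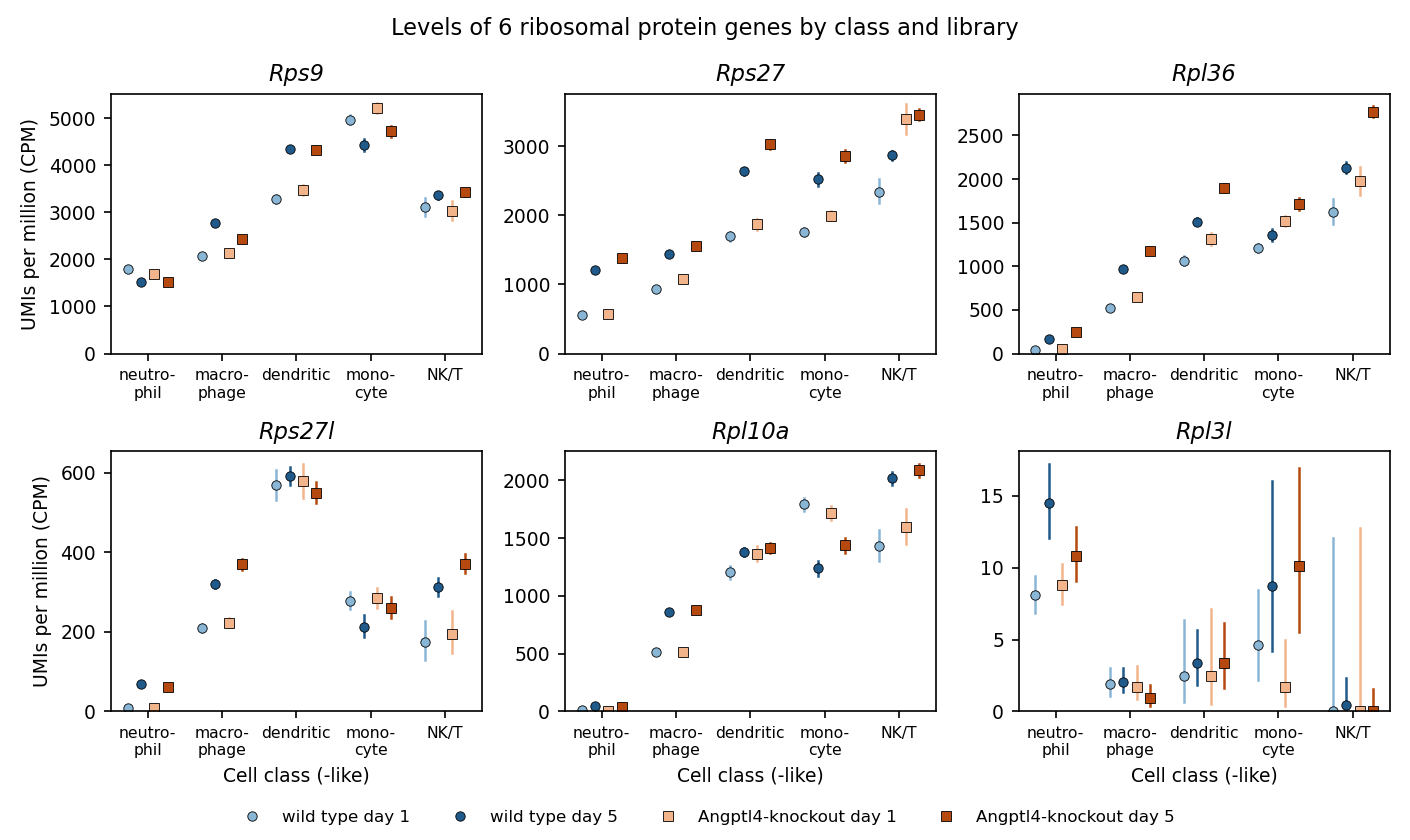
CPM (y axes, from 0, each gene on its own scale) of 6 ribosomal protein genes in 5 cell classes (x axes) and 4 libraries (colours), with exact Poisson 95% intervals as lines. Rps9 in neutrophil-like cells, 1519 to 1792 CPM, lies below macrophage-like cells, 2061 to 2769 CPM, with the smaller gap on day 1, while Rpl10a, 4.97 to 44.6 CPM, lies near 0 and Rpl3l is at most 14.5 CPM there.

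Free RNA in the droplets can give UMIs in cells that do not express a gene. Of the 10 macrophage markers, 7 (C1qa, C1qb, C1qc, Mrc1, Ms4a7, Fn1 and Arg1) were detected in neutrophil-like cells at 0.0782% to 0.705% of their macrophage-like level, and Apoe at 0.534% to 2.08%. Adgre1 was at 9.14% to 11.5%, and Spp1 was higher in neutrophil-like than in macrophage-like cells. Rpl10a in neutrophil-like cells was at 1.70% and 5.21% of its macrophage-like level in Angptl4+/+ wounds (1 and 5 dpw) and at 0.960% and 4.37% in Angptl4-/- wounds, above Apoe in each library. Rps27l was at 3.57% to 21.3%, Rpl36 at 7.18% to 21.0% and Rps9 at 54.9% to 86.9%. All 3 lay above Apoe and the 7 markers before it, while Rps27l and Rpl36 at 1 dpw lay below Adgre1. Apoe and the 7 markers before it were also at a higher percentage at 5 than at 1 dpw in Angptl4+/+ wounds. In Angptl4-/- wounds all of these but C1qb (0.239% and 0.228%) were, with Apoe at 0.534% and 1.89%. Adgre1 went from 10.3% to 9.14% with Angptl4 and from 10.2% to 11.5% without it. The part of free RNA in the lowest members' day ratios was not tested.

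Between 1 and 5 dpw, macrophage-like cells of both genotypes came to hold a larger share of ribosomal protein UMIs. The log2 ratio of the share was 0.63 (exact conditional binomial 95% interval 0.62 to 0.63) in Angptl4+/+ wounds and 0.61 (0.61 to 0.62) in Angptl4-/- wounds. All 80 members tested were above 0 in both genotypes, the lowest being Rpl22l1 in Angptl4+/+ wounds at 0.06 (-0.03 to 0.16). The share of all genes above 0 is not given. Of the 80 members, 63 and 62 were higher by at least 0.5. Of all genes, 24.0% and 18.3% were higher by that size, and 35.4% and 30.9% moved by it in either direction. The median of all genes was 0.15 and 0.07 and that of the members 0.65 and 0.63. Within the 2 macrophage-like clusters taken separately, the share went from 5.92% to 10.2% and from 7.82% to 11.5% in Angptl4+/+ wounds, and from 5.84% to 10.2% and from 8.22% to 12.4% in Angptl4-/- wounds, so both clusters were higher at 5 dpw. With TMM scaling of the summed counts the ratios were 0.50 and 0.52, and Rpl22l1 in Angptl4+/+ wounds lay below 0, at -0.06. The 10 neutrophil markers summed to 12220 and 1995 CPM in these macrophage-like cells at 1 and 5 dpw (Angptl4+/+) and to 11040 and 2093 CPM (Angptl4-/-), and their part in the day ratios was not tested. The median macrophage-like cell held 6846 and 8343 UMIs at 1 and 5 dpw with Angptl4, and 5729 and 11560 without it. The ratios of the share do not show the members' UMIs per cell.

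Rpl3, which sits at the peptidyl transferase centre, had 486 and 1025 CPM in macrophage-like cells of Angptl4+/+ wounds and 495 and 1045 CPM of Angptl4-/- wounds, a log2 ratio of 1.08 in each. It was the highest of the members in both genotypes. Rps18 (1.03 and 1.05), Rpl36a (0.96 in Angptl4+/+) and Rpl14 (1.05 in Angptl4-/-) completed the highest members. The lowest were Rpl22l1, Rpl23a and Rpl10 in Angptl4+/+ wounds (0.06, 0.25 and 0.25) and Rpl23a, Rps9 and Rpl31 in Angptl4-/- wounds (0.19, 0.19 and 0.20). Rpl22l1, the paralog that replaces Rpl22 in some ribosomes, thus stood apart from Rpl22 itself, which was at 450, 793, 458 and 798 CPM with log2 ratios of 0.82 and 0.80. In Angptl4-/- wounds the Rpl22l1 ratio was 0.52 (0.40 to 0.64).

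Neutrophil-like cells also had a higher share at 5 dpw, but so did most of their other genes. The median neutrophil-like cell held 4682 UMIs at 1 dpw and 3218 at 5 dpw with Angptl4, and 4640 and 3392 without it. A share does not show the members' UMIs per cell, which are not given. The log2 ratio of the share was 0.78 with Angptl4 (0.77 to 0.78) and 0.92 without it (0.92 to 0.93), and each of the 6 neutrophil-like clusters had a higher share at 5 dpw in both genotypes. Higher by at least 0.5 were 71 and 73 of the 81 members tested, against 58.9% and 60.8% of all genes in that direction and 64.4% and 65.8% in either. The median of all genes was itself 0.65 and 0.68, and that of the members 0.98 and 1.14. A few very abundant mRNAs took a smaller part of the neutrophil-like UMIs at 5 dpw, S100a9 with 9.84% and 5.71% and S100a8 with 7.10% and 3.60% in Angptl4+/+ wounds. The 10 most abundant genes together held 33.1% and then 26.1% with Angptl4, and 34.3% and then 25.9% without it. The part of these genes in the all-gene medians was not tested. Gm42418, a row that overlaps the ribosomal RNA repeat, went from 0.895% to 2.26% and from 0.788% to 1.86%. With TMM scaling the ratio of the summed members was 0.00 in Angptl4+/+ and 0.13 in Angptl4-/- wounds, with the median ratio over genes -0.10 and 0.10, so whether the group as a whole was higher in neutrophil-like cells depends on the scaling.

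The members' order among themselves does not depend on that choice, and it spread over more than 3 log2 units. Rps27l, the stress-inducible paralog of Rps27, had 8.95 and 68.2 CPM in neutrophil-like cells of Angptl4+/+ wounds at 1 and 5 dpw and 7.97 and 61.3 CPM of Angptl4-/- wounds. Its log2 ratios were 2.93 (2.69 to 3.18) and 2.94 (2.69 to 3.21), and 2.16 and 2.15 with TMM scaling. Rpl10a (2.36 and 2.95), the highest in Angptl4-/- wounds, Rpl14 (2.09 and 2.47) and Rpl36 (2.09 and 2.40) stood beside it. Rps27 itself had 551, 1210, 577 and 1380 CPM, with ratios of 1.13 and 1.26.

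Rps9 went the other way. Its level of 1792 CPM at 1 dpw was 1519 CPM at 5 dpw in Angptl4+/+ wounds, and 1682 CPM was 1526 CPM in Angptl4-/- wounds, log2 ratios of -0.24 (-0.27 to -0.21) and -0.14 (-0.17 to -0.11). It was the member with the lowest ratio in both genotypes, and by CPM the only one below 0 in both. With TMM scaling it was again the lowest, at -1.01 and -0.94. By that scaling 18 of 81 members were below 0 in both genotypes, among them Rps27a, Rps12, Rpl7 and Rplp0. TMM shifted every ratio by -0.77 and -0.80, more in size than the all-gene medians of 0.65 and 0.68. Most genes tested thus lay below 0 by TMM in each genotype, and their share in both is not given. By CPM, Rps27a was at -0.09 and 0.11 and Rps12 at 0.16 and 0.19. Rps9 and Rps27a were also the most abundant members in neutrophil-like cells at 1 dpw in Angptl4+/+ wounds. In macrophage-like cells Rps9 had ratios of 0.43 and 0.19, Rps27a 0.59 and 0.52 and Rps12 0.43 and 0.39.

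**Figure D3:**
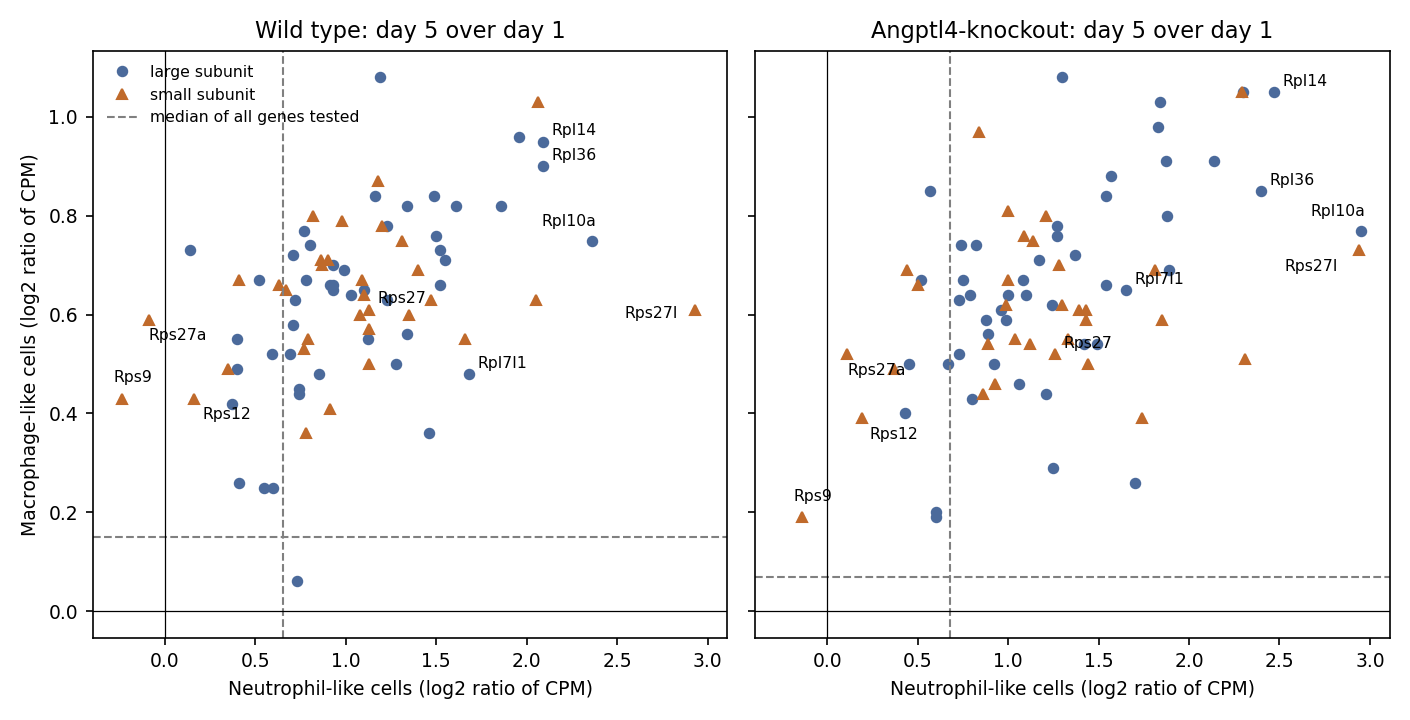
Day 5 over day 1 log2 ratios of CPM of each ribosomal protein gene in neutrophil-like (x axis) and macrophage-like cells (y axis), in Angptl4+/+ (left) and Angptl4-/- wounds (right). Circles are large-subunit and triangles small-subunit members, and dashed lines mark the median of all genes tested. All members lie above 0 in macrophage-like cells, while Rps9 lies at -0.24 and -0.14 in neutrophil-like cells.

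Functional groups within the ribosome were not uniform either. Of the P stalk proteins, Rplp0 had neutrophil-like day ratios of 0.40 and 0.52, while its partners Rplp1 (1.16 and 1.27) and Rplp2 (1.46 and 1.70) were higher. In macrophage-like cells the order differed, with 0.49 and 0.67 for Rplp0, 0.84 and 0.76 for Rplp1 and 0.36 and 0.26 for Rplp2. Values of Rplp1 and Rplp2 are uncertain, since 76.3% and 47.3% of their 31-base words are shared with other genes. The same holds for Rpl11 (46.9%). Rpl5 and Rpl11, which carry the 5S ribosomal RNA and bind Mdm2, had 1.23 and 1.54, and 1.55 and 1.57, in neutrophil-like cells. They had 0.78 and 0.66, and 0.71 and 0.88, in macrophage-like cells. Rps6, the substrate of the S6 kinases, had 1.13 and 1.43 in neutrophil-like and 0.50 and 0.59 in macrophage-like cells, and Rpsa 1.2 and 1.3, and 0.78 and 0.62.

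Dendritic cell-like and NK cell/T cell-like cells also had higher shares at 5 dpw, by log2 ratios of 0.44 and 0.35, and of 0.44 and 0.28 (Angptl4+/+ and Angptl4-/-). In dendritic cell-like cells 29 and 9 of 80 members were higher by at least 0.5, against 7.97% and 5.96% of all genes. In NK cell/T cell-like cells 26 and 12 of 80 were, against 26.1% and 20.3% of all genes, so the members' count was not far from the background. Neutrophil markers moved too, from 4756 to 1014 CPM and from 3266 to 1084 CPM in dendritic cell-like cells, and from 35000 to 3050 CPM and from 16750 to 2658 CPM in NK cell/T cell-like cells. Their part was not tested. Monocyte-like cells had no higher share at 5 dpw. Their ratios were -0.14 (-0.15 to -0.13) and -0.03 (-0.04 to -0.02). In Angptl4+/+ wounds 6 of 80 members were lower and 1 higher, against 14.3% of all genes lower and 9.99% higher, and in Angptl4-/- wounds 1 was lower and 1 higher, against 9.31% and 8.20%. Rps27, named here after its values were seen, was the higher member in both genotypes at 0.52, with 1755 and 2522 CPM in Angptl4+/+ and 1993 and 2856 CPM in Angptl4-/- wounds.

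The neutrophil-like cells were divided by k-means on the integrated components into 2 subsets, named by their level of Cxcr2, the receptor that draws neutrophils out of the marrow. By CPM the summed share hardly differed between them. Cxcr2-low over Cxcr2-high, the log2 ratio was 0.02 (Angptl4+/+) and -0.13 (Angptl4-/-) at 1 dpw. The 5 dpw ratios were -0.09 and -0.11. The median of all genes was 0.27 and 0.24 at 1 dpw and -0.01 and 0.12 at 5 dpw. The summed members lay below that median in each library. Of the 2 subset sums, only that of Cxcr2-high cells had an excess of small-subunit UMIs at 1 dpw. Its large to small ratios were 0.802 (Angptl4+/+) and 0.789 (Angptl4-/-), against 1.06 and 1.02 in Cxcr2-low cells. Over the neutrophil-like clusters at 1 dpw the ratios ran from 0.775 to 1.22. How the clusters divide between the subsets is not given, so the excess may not be confined to Cxcr2-high cells. Single members did differ, and the following were named after their values were seen. Rps9 had 2083, 2002, 1966 and 2012 CPM in Cxcr2-high cells and 1295, 944, 1193 and 971 CPM in Cxcr2-low cells. By CPM its level was thus close to constant over days and genotypes in the Cxcr2-high subset. TMM scaling was not applied to the subsets, and in all neutrophil-like cells it gave Rps9 day ratios of -1.01 and -0.94. Cxcr2-low over Cxcr2-high, the log2 ratio of Rps9 ran from -1.08 to -0.69, and that of Rps27a from -1.24 to -0.82. Rps28 was on the other side, with 17.6, 106, 16.6 and 97.5 CPM in Cxcr2-high and 60.1, 176, 46.6 and 181 CPM in Cxcr2-low cells, and a log2 ratio of 0.73 to 1.77.

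Between the genotypes the differences were small. In macrophage-like cells the share of Angptl4-/- wounds over that of Angptl4+/+ wounds had a log2 ratio of 0.08 (0.07 to 0.08) at 1 dpw and 0.06 (0.06 to 0.07) at 5 dpw. No member of 80 passed 0.5 in either direction on either day, against 6.08% and 8.06% of all genes. In neutrophil-like cells the ratio was -0.15 (-0.16 to -0.14) at 1 dpw and 0.00 (-0.01 to 0.01) at 5 dpw, and -0.05 and 0.10 with TMM scaling. There 6 of 81 members were lower by at least 0.5 at 1 dpw, against 5.83% of all genes lower and 7.20% in either direction, and 1 was higher at 5 dpw, against 2.60% higher and 8.57% in either direction. In monocyte-like cells the ratios were 0.06 and 0.16, in dendritic cell-like cells 0.12 and 0.03. Neutrophil markers in monocyte-like cells summed to 10770 CPM (Angptl4+/+) and 8325 CPM (Angptl4-/-) at 1 dpw, and to 12010 and 7531 CPM at 5 dpw. In dendritic cell-like cells they summed to 4756 and 3266 CPM, and to 1014 and 1084 CPM. The part of these markers in the ratios was not tested. NK cell/T cell-like cells had 0.24 and 0.08, and at 1 dpw their neutrophil markers differed as well (35000 CPM in Angptl4+/+ and 16750 CPM in Angptl4-/-), whose part was not tested. The last class had 3 of 79 members higher at 1 dpw, against 8.29% of all genes. Erythroid marker genes summed to 1316 CPM in neutrophil-like cells of the Angptl4-/- library at 5 dpw and to at most 3.71 CPM in the other 3, and their part in these ratios was not tested. Mast cell markers summed to 243.9 CPM in macrophage-like cells of that library and to at most 0.612 CPM in macrophage-like cells of the other 3, and their part was not tested either. No member was past 0.5 with one sign in both neutrophil-like and macrophage-like cells on both days.

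The 6 neutrophil-like members at 1 dpw included Rpl10a (-0.81) and Rpl22 (-0.60), and Rpl10a rests on 171 and 91 UMIs there. The member past 0.5 at 5 dpw was Rpl36, a small protein of the large subunit. In neutrophil-like cells Rpl36 had 38.6 and 46.8 CPM at 1 dpw (Angptl4+/+ and Angptl4-/-) and 165 and 247 CPM at 5 dpw, log2 ratios of 0.28 (0.13 to 0.42) and 0.58 (0.49 to 0.68). In macrophage-like cells it had 519 and 652 CPM at 1 dpw and 966 and 1176 CPM at 5 dpw, ratios of 0.33 and 0.28. The Angptl4-/- library was the higher one in each of these pairs.

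The same held in dendritic cell-like cells (0.30 and 0.33), monocyte-like cells (0.32 and 0.33) and NK cell/T cell-like cells (0.28 and 0.38). Values in all 10 comparisons of 5 classes and 2 days were available for 79 members. Of these, Rpl36 was by CPM the only one at 0.25 or more in every one. That size was used for this count only and was not fixed in advance. It lies just below the lowest value of Rpl36, 0.28, so the count adds nothing to the values themselves. With TMM scaling the values of Rpl36 ran from 0.24 to 0.68, and relative to the members' own UMIs from 0.05 to 0.58, the lowest in NK cell/T cell-like cells at 1 dpw. Rpl35a, Rpl37, Rps27 and Rps29, named after their values were seen, were also above 0 in all 10, with lowest values of 0.02 to 0.06. Rpl39 was above 0 in 9, with -0.01 to 0.42, and so was Rps21, with -0.02 to 0.40. Rpl35, Rpl36a, Rplp1 and Rps27a were also above 0 in 9. So were Rpl34, Rpl38 and Rps23, named after their values were seen. The same counts over all genes are not given, so these counts of members have no background beside them. The 10 comparisons share 4 libraries, so a difference between 2 libraries would appear in every class. Rpl36 lies on the chromosome of Angptl4 (chr17:56613416-56614243), 22.8 Mb away from it.

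**Figure D4:**
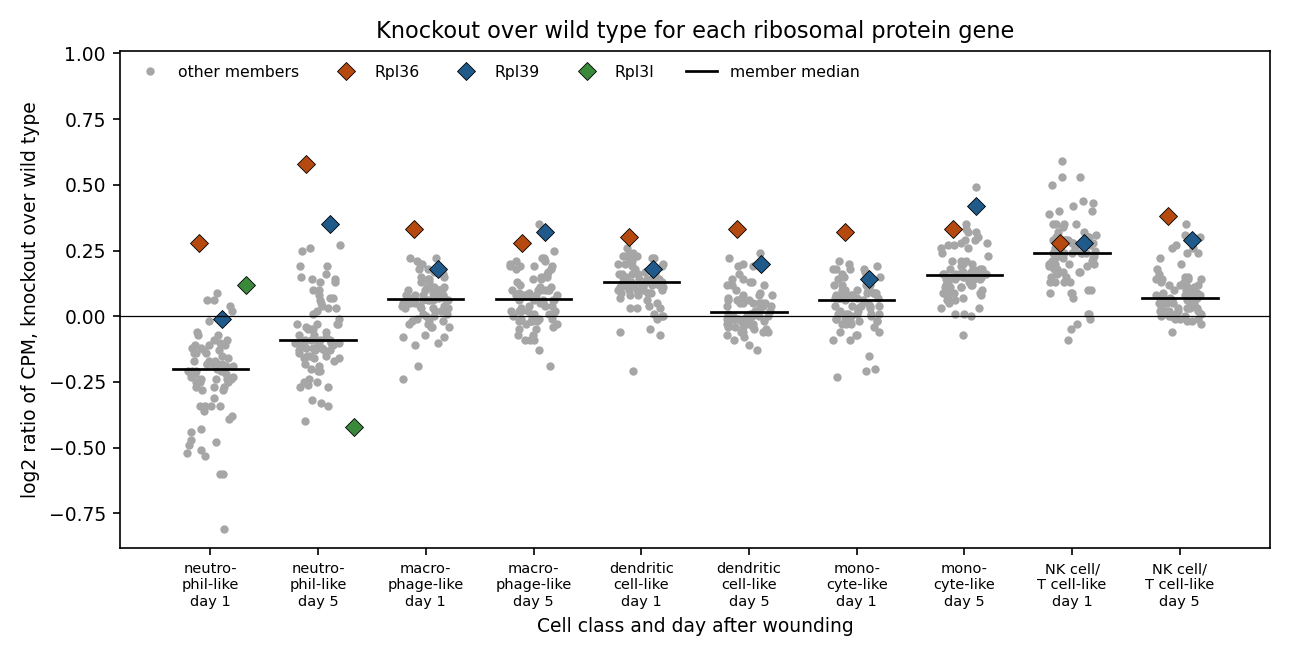
Angptl4-/- over Angptl4+/+ log2 ratios of CPM (y axis) of each ribosomal protein gene in 5 cell classes on each day (x axis), with grey points for members and black lines for their median. Rpl36 (orange) is at 0.28 to 0.58 in all 10 columns, and Rpl39 (blue) is near 0 in neutrophil-like cells on day 1 and at 0.20 to 0.42 on day 5; Rpl3l (green) had enough UMIs only in neutrophil-like cells.

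Of the members, 6 lie within 10 Mb of Angptl4 on chromosome 17. Rps28 (chr17:33819027-33824562) is 37.2 kb and Rps18 (chr17:33951999-33956001) 170.2 kb from it, and Rpl10a, Rps10, Rpl3l and Rps2 are farther. Rps28 had genotype ratios of -0.27 and -0.01 in neutrophil-like cells (1 and 5 dpw) and of 0.14 and 0.02 in macrophage-like cells. Rps18 had -0.49 and -0.27, and 0.08 and 0.10. Neither kept one sign across both classes.

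Of the paralogs, Rps27l was higher in dendritic cell-like cells than in the other classes in all 4 libraries, at 549 to 591 CPM against 173 to 370 CPM in monocyte-like, macrophage-like and NK cell/T cell-like cells and at most 68.2 CPM in neutrophil-like cells. Rpl7l1, a relative of Rpl7 that acts in ribosome assembly, had neutrophil-like day ratios of 1.68 and 1.65 while Rpl7 had 0.37 and 0.43. Rpl22 and Rpl22l1 had 1.61 and 0.73 in Angptl4+/+ wounds and 1.88 and 0.73 in Angptl4-/- wounds. Wild-type neutrophil-like cells at 1 dpw had 9.405 CPM of Rpl7l1 and 151 CPM of Rpl7. Rpl22 and Rpl22l1 lay close together there, at 31.01 and 34.3 CPM. The 1 dpw level is the denominator of the day ratio, so these pairs cannot show whether starting level and ratio are related.

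Other genes of the pathway were taken from lists. Of all genes tested in macrophage-like cells, 24.0% and 18.3% were higher by at least 0.5 at 5 dpw (Angptl4+/+ and Angptl4-/-). Of 16 further TOP mRNAs, such as elongation factors, 11 and 9 were higher by that size, none was lower, and their medians were 0.71 and 0.67. Eef1a1, the factor that brings aminoacyl-tRNA to the ribosome, had 2417, 3242, 2475 and 3223 CPM, with ratios of 0.42 and 0.38. Of the 42 genes of ribosome biogenesis, 41 and 39 could be tested there, and 29 and 28 were higher and 1 and 0 lower, with medians of 0.89 and 0.79. The nucleolar chaperone Npm1 had 202, 366, 177 and 323 CPM, with ratios of 0.85 and 0.87. Of the 78 mitochondrial ribosomal proteins, 76 and 75 could be tested, and 28 and 33 were higher, with medians of 0.39 and 0.43. The 13 regulators of TOP mRNAs had medians of 0.06 and 0.23, and 1 of the 12 and 1 of the 11 tested was higher. In macrophage-like cells, therefore, assembly factors and translation factors had day ratios in the range of the ribosomal proteins, above the all-gene medians of 0.15 and 0.07.

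In neutrophil-like cells the same lists had day medians of 0.74 and 0.63 for TOP mRNAs, 1.34 and 1.44 for ribosome biogenesis and 1.54 and 1.35 for mitochondrial ribosomal proteins, beside all-gene medians of 0.65 and 0.68. Of the biogenesis genes only 21 and 22 of 42 reached 100 UMIs there. Between genotypes the list medians lay from -0.32 to -0.06 in neutrophil-like and from -0.08 to 0.17 in macrophage-like cells.

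Of the ribosomal proteins that the name rule misses, Fau, which encodes a ubiquitin-like protein fused to Rps30, had 2329, 3511, 2214 and 3274 CPM in neutrophil-like cells, close to its 2810, 3459, 2808 and 3069 CPM in macrophage-like cells.

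Over the 20 sums of 5 classes and 4 libraries, genes whose log2(CPM + 1) followed that of the summed members closely, out of 11419 genes with at least 100 UMIs in the series, included Naca (Pearson r = 0.992), Rack1, Cdc37, Suclg1, Eif3h, Gm11808, Fbl, Hspe1 and B4galnt1 (0.987). Naca and Rack1 bind the ribosome and Fbl methylates ribosomal RNA. The points share 4 libraries, and 1672 genes had r of at least 0.9. Among the members, Rps9, Rps27 and Rps27l had r of 0.86, 0.886 and 0.888 with the sum, and Rpl3l -0.61.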

How the data were processed

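Per the labels and the study's methods, the authors sorted live CD45+ wound cells, made droplet libraries and counted reads with Cell Ranger (3.1.0) on mm10. The deposited matrices hold raw UMI counts. Members and lists were chosen with earlier results of these data known. Cells with at least 200 genes and at most 10% mitochondrial UMIs were joined with Seurat (5.3.0) anchors (2000 variable genes, 30 dimensions, resolution 0.5) after 246 genes, the members and compared lists among them, were removed. Clusters were named by marker detection, a rule settled after the data were seen. Predicted doublets (789 cells, the highest scores at 0.8% per 1000 cells) were kept. UMIs were summed per class and library, and ratios were given for genes with at least 100 UMIs over both sums. Intervals are exact and cover counting error only, the method was tested on simulated data, and edgeR (4.0.16) gave TMM factors. The genes named are the 3 highest and lowest members per contrast and class, the 5 at each end between classes, paralogs, members near Angptl4 and those of the functional lists. CPM of the UMI counts need no length scaling, since reads were taken at transcript ends. Some items that the rule would name are not reported here.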

Additional observations from a re-analysis of the deposited data

Results flagged for a closer look

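Between the genotypes at 1 dpw, the summed ribosomal protein genes were lower in Angptl4-/- than in Angptl4+/+ wounds in neutrophil-like cells (log2 ratio -0.15) and higher in monocyte-like (0.06), macrophage-like (0.08), dendritic cell-like (0.12) and NK cell/T cell-like cells (0.24). Between the days in Angptl4+/+ wounds, they were lower at 5 dpw in monocyte-like cells (-0.14) and higher in neutrophil-like (0.78), macrophage-like (0.63), dendritic cell-like and NK cell/T cell-like cells (both 0.44). In Angptl4-/- wounds the monocyte-like value was -0.03, and the other 4 classes had 0.92, 0.61, 0.35 and 0.28. These results are listed because the classes moved in opposite directions by CPM. With TMM scaling, the Angptl4+/+ day ratio was 0.00 in neutrophil-like and -0.11 in monocyte-like cells, and with the median ratio -0.10 and -0.08. In Angptl4-/- wounds the same values were 0.13 and -0.03, and 0.10 and -0.02. The neutrophil-like genotype ratio at 1 dpw became -0.05 with TMM and -0.04 with the median ratio. With 1 library per group, the differences between classes were not tested.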

How the results depend on the processing

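No paired analysis was possible because each genotype and day had 1 library. For the same reason no replicate could be left out, and intervals cover counting error only. Scaling moved the neutrophil-like results most. The day ratio of the share in neutrophil-like cells, 0.78 in Angptl4+/+ and 0.92 in Angptl4-/- wounds, was 0.00 and 0.13 with TMM and -0.10 and 0.10 with the median ratio, both added after seeing the data. In macrophage-like cells, 0.63 and 0.61 became 0.50 and 0.52, and 0.46 and 0.50. The genotype ratio in neutrophil-like cells, -0.15 and 0.00 at 1 and 5 dpw, became -0.05 and 0.10 with TMM and -0.04 and 0.11 with the median ratio. In macrophage-like cells, 0.08 and 0.06 became 0.05 and 0.07, and 0.05 and 0.08.

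Of members past 0.5 in neutrophil-like cells, the 71 (Angptl4+/+) and 73 (Angptl4-/-) higher at 5 dpw became 24 and 31 with TMM, 19 and 29 with the median ratio and 39 and 48 at a size of 1.0. None lower became 4 and 3 with TMM and 6 and 4 with the median ratio, and 1 in Angptl4+/+ with at least 10 UMIs. Shares of all genes are not given for these recounts. Relative to the all-gene median, 30 and 39 of the 81 members were higher at 5 dpw by 0.5, against 23.4% and 24.0% of all genes. The 6 lower in Angptl4-/- wounds at 1 dpw became 3, 1 and, at a size of 1.0, 0, and the 1 higher at 5 dpw became 0 at that size. In macrophage-like cells the 63 and 62 higher at 5 dpw became 2 and 5 at a size of 1.0, and the 63 became 34 with the median ratio. Relative to the all-gene median, 39 and 51 of the 80 macrophage-like members were higher at 5 dpw by 0.5, against 16.4% and 15.0% of all genes. With at least 10 UMIs, 2 were lower in Angptl4-/- wounds at 5 dpw and 1 was lower between the days in Angptl4-/- wounds.

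The median share over libraries in all cells, 7.35%, was 6.89% at a mitochondrial limit of 5%, 7.37% with at least 500 genes, 7.48% without predicted doublets, 7.49% without mitochondrial UMIs, 4.66% as the mean of cells' shares and 4.67% with cells thinned to 1000 UMIs. In neutrophil-like cells it was 1.98% and became 2.0% as the mean of cells and thinned, and 1.99% without mitochondrial UMIs and with the compared genes kept in the clustering. In macrophage-like cells 9.15% became 9.28% without doublets, 8.21% as the mean of cells, 9.42% without mitochondrial UMIs, 8.28% thinned, 9.19% without integration, 8.57% at resolution 1.0 and 9.08% with the compared genes kept. In these last settings, clusters of 312 and 1100 cells that scored highest for the macrophage list were left unnamed. Macrophage-like values at resolution 1.0 and with the compared genes kept thus rest on a different set of cells. The median macrophage-like over neutrophil-like ratio, 2.22, became 2.24 without doublets, 2.06 as the mean of cells, 2.26 without mitochondrial UMIs, 2.07 thinned, 2.13 at resolution 1.0 and 2.19 with the compared genes kept. The Cxcr2-low over Cxcr2-high ratio, -0.10, became -0.06 as the mean of cells and -0.07 thinned, and the part of Rps9, 9.17%, became 8.89% thinned, an alternative added after seeing the data.

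In macrophage-like cells the day ratio in Angptl4+/+ wounds was 0.63 at the mitochondrial limit of 5%, 0.64 without doublets, without mitochondrial UMIs, without integration and with the compared genes kept, 0.70 as the mean of cells, 0.69 thinned and 0.74 at resolution 1.0. In Angptl4-/- wounds it was 0.63 at the limit of 5% and without mitochondrial UMIs, 0.59 without doublets, 0.76 as the mean of cells and at resolution 1.0, 0.73 thinned, and 0.60 without integration and with the compared genes kept. In neutrophil-like cells it became 0.81 (Angptl4+/+) and 0.93 (Angptl4-/-) with the compared genes kept, and 0.94 in Angptl4-/- wounds as the mean of cells and thinned. The genotype ratio in neutrophil-like cells at 5 dpw became 0.02 as the mean of cells and thinned and -0.03 with the compared genes kept. In macrophage-like cells at 1 dpw it became 0.07 at the limit of 5%, 0.10 without doublets and with the compared genes kept, 0.01 as the mean of cells, 0.03 thinned, 0.09 without integration and 0.05 at resolution 1.0. At 5 dpw it became 0.05 without doublets, without integration and with the compared genes kept.

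Single members changed sign between the days in some settings. In neutrophil-like cells with TMM, and then scaled by the members' own UMIs, Rpl22l1 had -0.04 by both with Angptl4, and -0.06 and -0.19 without it. Rpl23a had -0.23 by both, and -0.20 and -0.33. Rpl4 had -0.22 and -0.35 and Rpl31 -0.20 and -0.33 in Angptl4-/- wounds, and with TMM -0.63 and -0.37 in Angptl4+/+ wounds. With TMM, Rplp0 (-0.37 and -0.27), Rpl7 (-0.40 and -0.37) and Rps12 (-0.61 in both) also lay below 0. Rpl10 had -0.17 and -0.18 in Angptl4+/+ and, by the members' UMIs, -0.13 in Angptl4-/- wounds. In macrophage-like cells, by the members' UMIs, Rps27a had -0.04 and -0.09, Rps27l -0.01 in Angptl4+/+ and Rpl22l1 -0.10 in Angptl4-/- wounds. Where a value moved for a reason other than its construction, the cause was not tested.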
